A study of Mus musculus with 8 samples.

Results

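Contractile fibroblasts were examined in colon tumours of mice whose fibroblasts had kept or lost the transcription factor ZEB1. A well of a 384-well plate, holding 1 sorted cell, counted as a contractile fibroblast when it passed fixed limits on its transcripts. It had at least 2000 transcripts without mitochondrial and spike-in transcripts, at least 100 transcripts of the fibrillar collagens Col1a1, Col1a2 and Col3a1 per 10000, and fewer than 2 transcripts each of Epcam and Ptprc. Msln and Upk3b, genes of mesothelium, together had to give fewer than 3. The summed transcripts of Tagln, Acta2, Tnc and Col8a1 then had to exceed those of Dpt, Lum, Sfrp4 and Htra3. The wells were thus chosen by their own transcript counts of these genes. The rule left 88 wells of 3072, or of 1376 wells with at least 2000 transcripts. A further 76 wells had more of the second gene group and are called matrix wells, and 3 wells were tied, which makes 167 fibroblast wells.

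Fibroblasts that acquire a contractile apparatus are known as myofibroblasts, and in tumours as myofibroblastic cancer-associated fibroblasts. They assemble smooth muscle actin (Acta2) and transgelin (Tagln) into stress fibres, pull on the collagen around them, and are typically induced by TGF-beta and by tension. Pericytes and smooth muscle cells of vessels share much of this gene programme, so actin genes alone do not define a fibroblast.

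The study asked how ZEB1 in fibroblasts shapes the tumour and its stroma. Colon organoids with engineered cancer mutations had been transplanted into the caecal wall of mice, and single cells of the primary tumours were sorted and counted by SORT-seq, which tags the 3′ end of each transcript with a molecular identifier. FibCtrl mice were Zeb1 fl/fl without Cre, and FibΔZeb1 mice (Fib-Del in the labels) were Zeb1 fl/fl with a tamoxifen-inducible Cre. Both groups received the tamoxifen diet and the same kind of organoids. The labels call the transgene Col1a1Cre-ERT2 and the methods of the study call it Col1a2-CreERT2, and both promoters are active mainly in fibroblasts. Age and sex of single mice were not given, and mice of both sexes were used. There were 4 mice per genotype, each on its own plate. Fibroblasts had been gated as negative for CD45, CD31 and EPCAM, and a gate of this kind does not remove pericytes or smooth muscle cells. Index-sort gates of single wells did not enter the selection.

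The plates contributed unequally. FibCtrl plates 1 to 4 held 31, 2, 9 and 9 contractile wells, and FibΔZeb1 plates 1 to 4 held 27, 2, 5 and 3, so that FibCtrl 1 and FibΔZeb1 1 together held 58 of the 88 wells (65.9%). Summed over contractile wells the plates gave between 13865 and 708600 transcripts, and FibCtrl 2 was the shallowest plate as a whole. Comparisons between genotypes rest on plates with at least 5 such wells, namely FibCtrl 1, 3 and 4 and FibΔZeb1 1 and 3. A single well supplied 30.03% of the transcripts on FibCtrl 3, 38.4% on FibCtrl 4 and 38.8% on FibΔZeb1 3. All 8 plates used the same 384 well names, as plate layouts do, and no well was shared. Contractile wells of FibCtrl 3 and FibΔZeb1 1 carried mainly Y-linked transcripts and those of FibCtrl 1 and 4 and FibΔZeb1 3 and 4 only Xist, so host sex was not matched plate by plate. FibCtrl 2 showed 2 Xist and 7 Y-linked transcripts, and FibΔZeb1 2 had 0 of either.

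**Figure D1:**
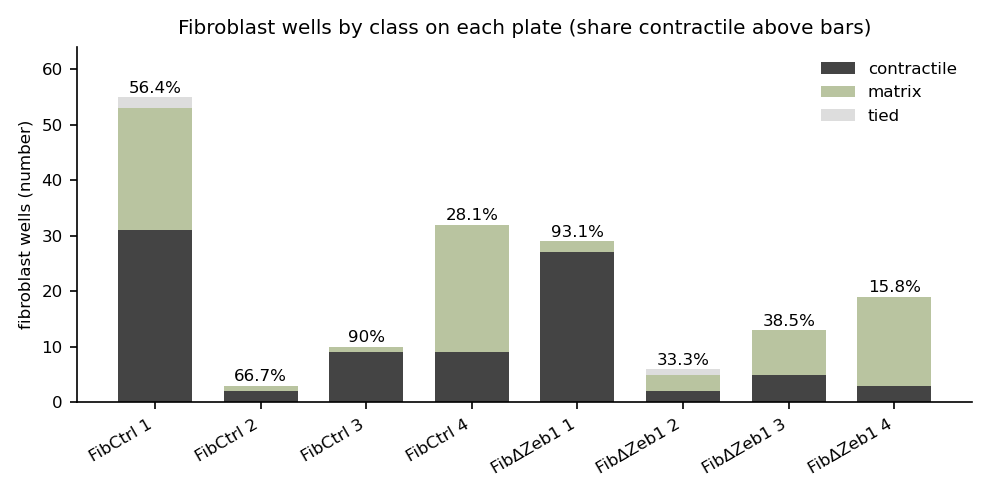
Number of fibroblast wells on each of the 8 plates (vertical axis), split into contractile, matrix and tied wells, with the percentage of contractile wells printed above each bar. FibCtrl 1 and FibΔZeb1 1 carry most contractile wells, and the percentage runs from 15.8% to 93.1%.

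Members near the limits differed little from wells just outside. The smallest excess of contractile over matrix transcripts was 1, in 4 wells, and the nearest wells outside were the 3 tied ones and 1 with a difference of -0.02. The shallowest member had 2028 transcripts against 1988 in the deepest well left out for depth, and collagen reached 102 per 10000 in the lowest member against 92.2 just outside. Most members were far from the main limit. The median well had 14076 transcripts (2028 to 82808), 355 collagen transcripts per 10000, 74.3 contractile transcripts and 5.50 matrix transcripts, and in 80 wells the contractile sum was at least 2 times the matrix sum.

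The 4 genes that chose the wells were not present together in every well. Acta2, smooth muscle actin, was found in 82 of 88 wells with a median of 15.7 transcripts per 10000, and it reached 199. Col8a1, a short-chain collagen of vessel walls and wounds, was found in 73 wells with a median of 11.3 per 10000. Tagln, an actin-binding protein, was in 72 wells (median 6.14) and Tnc, tenascin C of wound and tumour matrix, in 74 (median 3.80). These values describe the choice and carry no test.

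Levels of these genes also differed between plates. Acta2 CPM, its counts scaled to 1e6 transcripts of a plate's contractile wells, came to 4194, 0, 1949 and 1331 in FibCtrl (plates 1 to 4) and 3365, 2382, 495 and 2855 in FibΔZeb1 (plates 1 to 4). Tagln CPM were 1532, 0, 1771 and 741 in FibCtrl, with 1364, 794, 1348 and 1147 in FibΔZeb1. The 2 wells of FibCtrl 2 had neither actin gene and entered through Tnc and Col8a1. Col8a1 CPM were 1990, 70.6, 804 and 2374 in FibCtrl and 1190, 722, 3247 and 4002 in FibΔZeb1. Tnc CPM were 590, 494, 178 and 3178 in FibCtrl and 1290, 289, 2380 and 1147 in FibΔZeb1. For each of the 4 genes the genotypes overlapped, and FibΔZeb1 3 combined the second-lowest Acta2 with high Col8a1 and Tnc.

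Mgp and Spp1, a pair of secreted mineral-binding proteins, accompanied the contractile genes although the rule did not use them. Mgp, the matrix Gla protein that restrains calcification, was in 80 of 88 wells and reached 850 transcripts per 10000. Spp1, osteopontin, was in 66 wells and reached 863 per 10000. With every well thinned to 2000 transcripts, Spp1 was found in 53.4% of contractile wells, 6.58% of matrix wells and 9.30% of 441 epithelial wells of the same plates. The epithelial share serves as a background. It can hold free RNA, misplaced reads and transcripts that epithelial cells make themselves, which were not separated. Median depths were 14076, 21292 and 22366 transcripts in contractile, matrix and epithelial wells. The thinned share for Mgp was 81.8% in contractile, 44.7% in matrix and 27.4% in epithelial wells. For Acta2 it was 79.5%, 28.9% and 15.4%, and for Tagln 56.8%, 7.89% and 5.44%. Unthinned shares in contractile, matrix and epithelial wells were 90.9%, 80.3% and 61.7% for Mgp, 93.2%, 71.1% and 51.02% for Acta2, and 81.8%, 35.5% and 21.996% for Tagln. Unthinned, Spp1 was in 66 of the 88 contractile wells, 43.4% of matrix wells and 40.8% of epithelial wells.

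**Figure D2:**
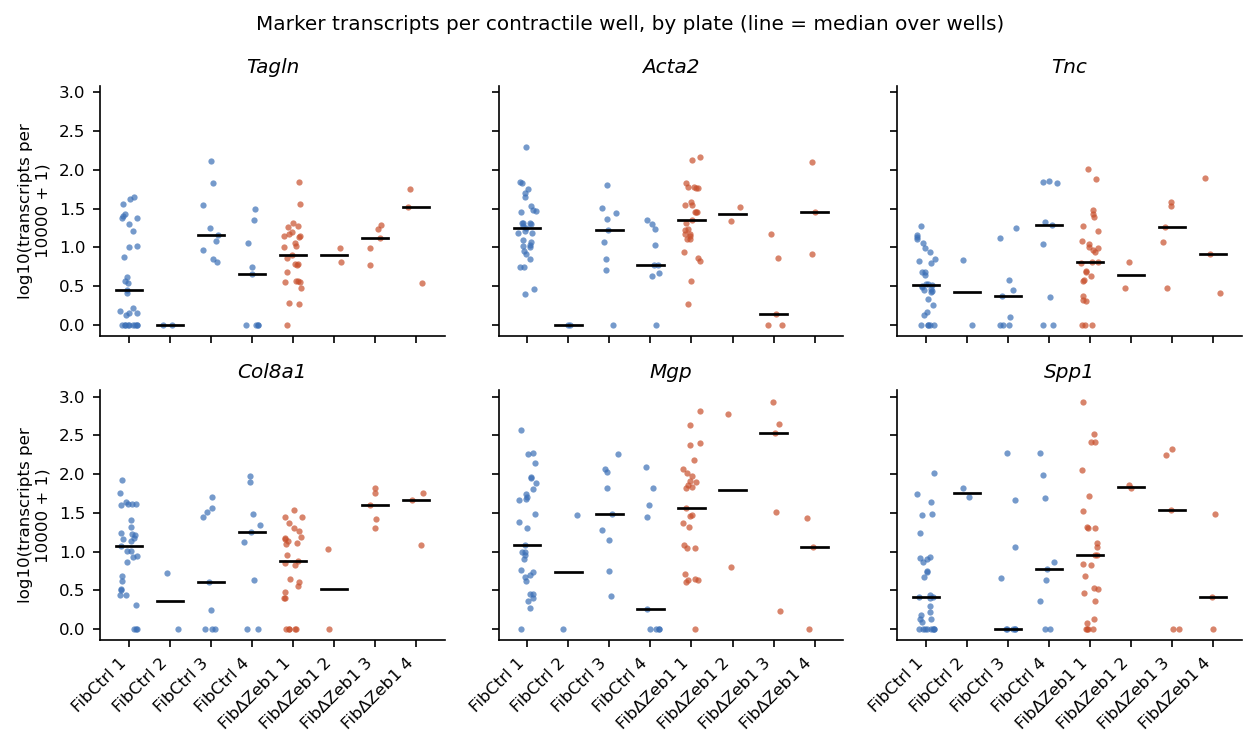
Transcripts of the 4 rule genes and of Mgp and Spp1 in each contractile well, as log10 of transcripts per 10000 plus 1, by plate (FibCtrl blue, FibΔZeb1 red, line at the median of the wells). Within FibΔZeb1 1 the wells run from 0 to 656 transcripts per 10000 for Mgp and from 0 to 863 for Spp1, and the 2 wells of FibCtrl 2 lack Tagln and Acta2.

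Promoter letters of a few of these genes are shown so that the best known contractile motif can be seen beside the expression data. Serum response factor binds the CArG box, and ZEB1 binds E-boxes with the letters CAGGTG on either strand. In windows of 250 bases before to 50 after each start site (RefSeq, GRCm38.p6, both strands), a CArG box stood in 4 of the 22 contractile apparatus genes that had a window (18.2%), namely Cnn2, Myl6, Myl9 and Vcl, against 1.81% of all 27025 genes. CAGGTG stood in 4 of these 22 (18.2%) against 22.6% of all genes. Myl9, the regulatory light chain of myosin, holds a CArG box 161 to 152 bases before its start. Spp1 holds a CAGGTG 98 to 93 bases before its start. The Acta2 window holds neither motif in the exact form searched, which says nothing about the factors. For the CArG box that form allows only A and T between CC and GG. In the Acta2 letters the stretches ccctatatgg and ccttgtttgg miss it by a single letter each and stand in lower case. Tagln and Mgp had no window in the table. The 250 bases before the start are printed with the motif letters in capitals, for Acta2 as a rule gene, Myl9 as a member with a CArG box and Spp1 as the gene that differed most from matrix wells.
Acta2, chr19:34255374-34255623, minus strand: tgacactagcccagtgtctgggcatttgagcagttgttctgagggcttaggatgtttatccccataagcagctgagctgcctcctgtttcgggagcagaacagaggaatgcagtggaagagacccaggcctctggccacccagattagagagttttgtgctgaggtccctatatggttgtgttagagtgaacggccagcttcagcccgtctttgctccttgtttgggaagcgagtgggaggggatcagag
Myl9, chr2:156775214-156775463, plus strand: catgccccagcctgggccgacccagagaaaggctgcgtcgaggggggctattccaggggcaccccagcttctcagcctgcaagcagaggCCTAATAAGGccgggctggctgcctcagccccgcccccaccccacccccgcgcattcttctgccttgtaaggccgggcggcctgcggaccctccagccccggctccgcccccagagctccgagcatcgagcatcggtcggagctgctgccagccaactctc
Spp1, chr5:104434861-104435110, plus strand: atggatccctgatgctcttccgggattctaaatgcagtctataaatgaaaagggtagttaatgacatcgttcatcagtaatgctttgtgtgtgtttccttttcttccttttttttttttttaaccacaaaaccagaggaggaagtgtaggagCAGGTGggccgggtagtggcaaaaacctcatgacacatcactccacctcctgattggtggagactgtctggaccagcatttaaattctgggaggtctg

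The most abundant transcripts of contractile wells were those of matrix secretion. Over the 5 plates with at least 5 wells, Col1a2 had 20086 ± 2748 CPM and Col1a1 18170 ± 2837 (mean ± SD, n = 5), and both are used by the rule. Sparc, a collagen-binding glycoprotein, had 15846 ± 2772 CPM. Mgp (7392 ± 5739), Igfbp7 (6680 ± 2434), Fn1 for fibronectin (6525 ± 3856), the proteoglycan Bgn (4486 ± 1683), Spp1 (4358 ± 3499) and Fstl1 (3506 ± 402) followed among secreted products. Of these, Fstl1 varied least and Spp1 and Mgp most between plates. The cytoskeletal genes Actb (5166 ± 1536), Vim (4844 ± 1661) and Actg1 (3620 ± 1368) and the translation genes Tpt1 (5062 ± 1412) and Eef1a1 (3891 ± 649) were also among the first 20 by level without ribosomal protein genes. That list further held the ribosomal RNA gene Rn45s, at 45419 ± 27935 CPM the highest of all, and Wdr92, Kcnq1ot1, Mir5109 and Malat1, of which all but Wdr92 are noncoding. Acta2 stood at rank 30.

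Endothelial and glial markers were at or near 0, and markers of other cell types were found at varying levels. All 10 fibroblast markers, among them Pdgfra, Pdgfrb, Thy1 and Dcn, were found on all 5 plates. The endothelial markers summed to 0 to 54.1 CPM with Cdh5 at 0, and the glial markers to 0 to 11.3 CPM with Sox10 and Gfap at 0. Epithelial markers summed to 247 to 352 CPM on the 3 FibCtrl plates and 113 to 179 CPM on the 2 FibΔZeb1 plates, with Krt20 at 0. Immune markers summed to 61.9 to 327 CPM in FibCtrl and 82.5 to 155 in FibΔZeb1. Mesothelial markers summed to 103 to 464 CPM in FibCtrl and 102 to 138 in FibΔZeb1, with the highest sum on FibCtrl 3, where Wt1 had 356 CPM. Pericyte markers summed to 650 to 2098 CPM in FibCtrl and 1004 to 1762 in FibΔZeb1, and 5 of the 9 were found on all 5 plates. Smooth muscle markers summed to 307 to 565 CPM and 261 to 576 CPM, with 2 of 7 found on all 5 plates. Myh11 and Cnn1, which mark differentiated smooth muscle, were seen in only 11 and 4 of the 88 wells. All 88 wells carried Col1a1, Col1a2 and Col3a1, for which the rule required only a summed level. Of the 88, 57 (64.8%) also had at least 3 transcripts of the mural genes Rgs5, Cspg4, Notch3, Myh11 and Des together. By these markers the wells are collagen-producing cells, and fibroblasts, pericytes and smooth muscle cells cannot be told apart well by well. The name contractile stands for the rule, which some wells met with very few transcripts. A well of FibCtrl 4 entered with 1 Acta2 transcript and 0 of the matrix genes.

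Contractile wells differed among themselves in which rule gene led. Acta2 had the most transcripts in 48 wells, Col8a1 in 22, Tnc in 11 and Tagln in 4, and 3 wells had equal leaders. On FibCtrl 1 and FibΔZeb1 1 Acta2 led in 20 of 31 and in 18 of 27 wells. On FibΔZeb1 3 it led in 0 of 5, with Col8a1 leading in 4. Mgp had a median of 71.2 transcripts per 10000 in the Col8a1-led wells, 22.2 in the Tnc-led wells and 10.7 in the Acta2-led wells. Spp1 had a median of 33.2 per 10000 in Tnc-led wells and 13.6 in Col8a1-led wells, against 1.54 in Acta2-led wells. The groups share plates and were formed from the same wells, so these medians are given without a test.

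Rgs5, a signalling regulator that is typical of pericytes, was confined to some Acta2-led and Col8a1-led wells. It was found in 21 of 88 wells, 19 of them led by Acta2 and 2 by Col8a1. At least 3 Rgs5 transcripts, a limit set after the values were seen, occurred in 14 wells, of which 6 were on FibCtrl 1, 7 on FibΔZeb1 1 and 1 on FibΔZeb1 4. These 14 wells had a median of 9.05 Notch3, 6.52 Cspg4 and 18.3 Thy1 transcripts per 10000, against 0, 1.87 and 4.75 in the other 74. Their median for Spp1 was 0.43 against 6.75, and for Col8a1 2.26 against 13.2. They still carried a median of 106 Col1a1 transcripts per 10000 (154 in the other wells). After thinning, Rgs5 was found in 17.05% of contractile wells and in 0 of 76 matrix and 0 of 441 epithelial wells, whereas Pdgfrb, the receptor of pericytes and many fibroblasts, was in 56.8%, 14.5% and 2.95%. Without thinning the shares were 23.9%, 2.63% and 3.17% for Rgs5 and 73.9%, 73.7% and 13.2% for Pdgfrb, so the deeper matrix wells had Pdgfrb as often at full depth. Counting Rgs5, Cspg4, Notch3, Myh11 and Des together, 27 of 51 FibCtrl wells (52.9%) and 30 of 37 FibΔZeb1 wells (81.1%) had at least 3 transcripts. Wells with fewer numbered 13 of 31, 1 of 2, 4 of 9 and 6 of 9 on FibCtrl plates 1 to 4. On FibΔZeb1 plates 1 to 4 they numbered 3 of 27, 1 of 2, 1 of 5 and 2 of 3. The pooled FibΔZeb1 share thus rests mostly on plate 1, and wells of a plate are not replicates of a genotype. Median depth was 11582 transcripts in the FibCtrl wells and 16071 in the FibΔZeb1 wells. The part of mural cells in the results below was not tested beyond the removal of wells with at least 3 mural transcripts.

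**Figure D3:**
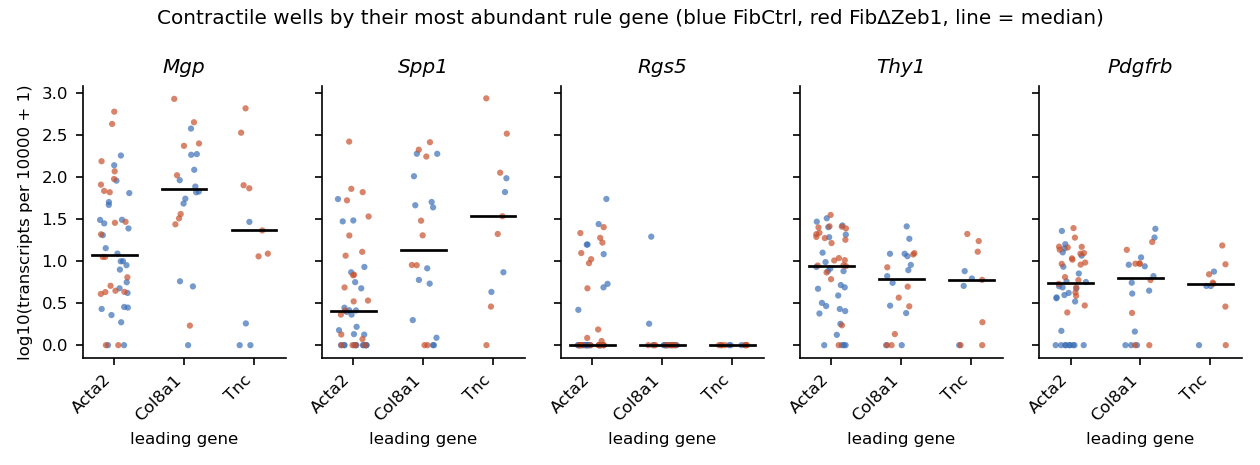
Transcripts of Mgp, Spp1, Rgs5, Thy1 and Pdgfrb, as log10 of transcripts per 10000 plus 1, in contractile wells led by Acta2 (48), Col8a1 (22) or Tnc (11), with FibCtrl wells in blue, FibΔZeb1 wells in red and a line at the median. Rgs5 appears almost only among Acta2-led wells, while Mgp and Spp1 have higher medians in the other wells.

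Contractile and matrix wells could be set side by side within 3 plates, FibCtrl 1, FibCtrl 4 and FibΔZeb1 3, that had at least 5 wells of each. The rule made this contrast, so the ratios are a description without a test. Over all 8723 genes with a mean of at least 10 CPM, 12.8% were higher and 18.9% lower in contractile wells on every plate, and the median log2 ratio was -0.15. Contractile wells were shallower than matrix wells, with median depths of 19698 and 20759 on FibCtrl 1, 4020 and 22438 on FibCtrl 4 and 16071 and 46201 on FibΔZeb1 3.

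Spp1 was the gene furthest above matrix wells on these 3 plates. It had 1290, 2952 and 6769 CPM in contractile wells of FibCtrl 1, FibCtrl 4 and FibΔZeb1 3, against 48.4, 13.4 and 35.7 CPM in matrix wells, a mean log2 ratio of 6.40 ± 1.52 (SD, n = 3 plates). Single contractile wells held 347 of 912, 118 of 235 and 360 of 492 Spp1 transcripts on these plates. FibΔZeb1 2, with 2 contractile and 3 matrix wells, ran the other way, at 7001 CPM of Spp1 in contractile and 10370 in matrix wells. Ltbp2, which binds elastic fibres, had 337, 414 and 880 CPM against 46.4, 3.34 and 13.4. Serpine2, an inhibitor of thrombin-like proteases, had 808, 540 and 2848 CPM and a mean log2 ratio of 4.27, and Inhba, the activin A subunit, had 236, 214 and 3027 CPM and a ratio of 3.67. Genes of the Notch pathway and of mural cells were in the same group, with mean log2 ratios of 4.36 for the Notch target Heyl, 3.61 for the receptor Notch3 and 3.90 for the adhesion molecule Mcam. The netrin receptor Unc5b (3.64) and the intermediate filament gene Nes (3.60) were also among the 10 highest. Mgp, with a mean log2 ratio of 2.91 ± 1.71, was higher on all 3 plates but not among these 10.

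Chl1, Figf, Sbsn, Clec3b and Tmem100 were furthest below matrix wells. Chl1, a neural adhesion molecule, had 0 of 859309 transcripts in contractile wells against 406 of 1542184 in matrix wells, which is at least 75.4-fold lower when 3 counts are allowed in contractile wells. Figf, a growth factor of lymphatic vessels, and Sbsn each had 4 transcripts against 459, and Clec3b, tetranectin, had 5 against 503. Cd55, a brake on complement, had 6 against 792, Tmem100 15 against 597 and the guidance factor Sema3c 39 against 864. The elastic matrix genes Tnxb and Efemp1 had 3 against 355 and 12 against 1003, and the complement component C3 had 414 against 4691. C3 had a mean log2 ratio of -4.84 ± 1.77 and was 579, 50.2 and 13.8 CPM on the 3 plates in contractile wells.

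**Figure D4:**
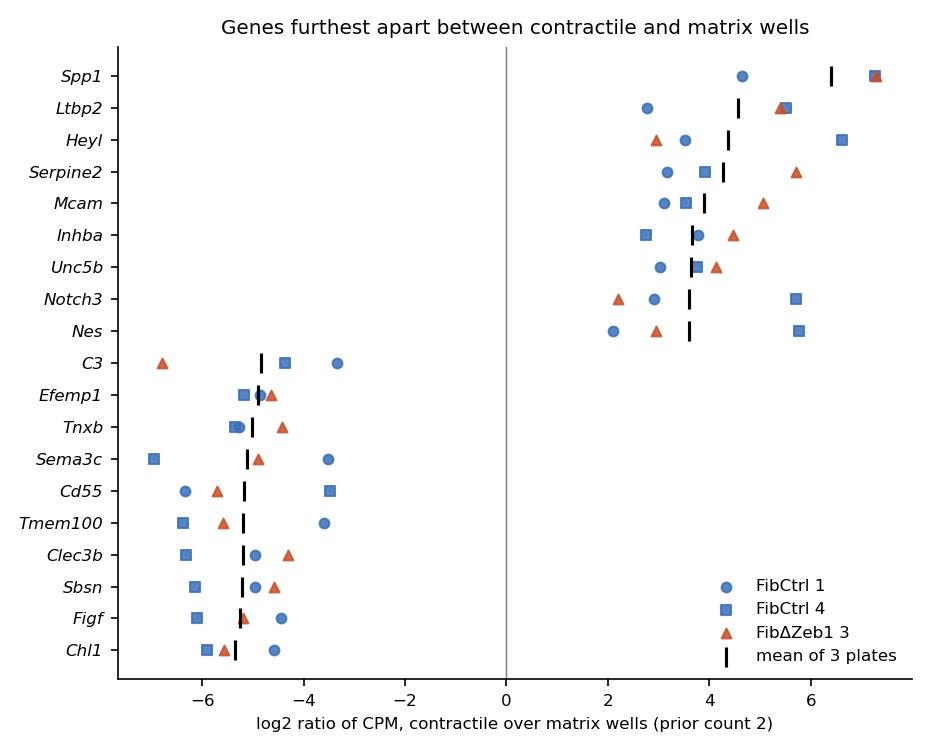
Log2 ratio of CPM in contractile over matrix wells (horizontal axis, prior count of 2) on FibCtrl 1, FibCtrl 4 and FibΔZeb1 3, for genes among the 10 furthest apart in each direction with the same sign on every plate and at least 100 CPM in the higher class. Spp1 has the largest mean, 6.40, and Chl1 the lowest.

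Beside matrix wells, 13 of 18 hypoxia and glycolysis genes were higher on every plate, and the share of contractile apparatus genes was near that of all genes. Of 20 measured contractile apparatus genes outside the rule, 3 were higher than in matrix wells on every plate and 0 lower, with a median log2 ratio of 0.62 and against 12.8% of all genes. These were tropomyosin Tpm2 (1.62), caldesmon Cald1 (1.03) and myosin light chain kinase Mylk (1.67). Of 18 hypoxia and glycolysis genes, 13 were higher on every plate and 2 lower, with a median of 0.68. Vegfa, the angiogenic growth factor, had 103, 1017 and 1087 CPM in contractile and 92.8, 324 and 326 CPM in matrix wells, and the glucose transporter Slc2a1 had a mean log2 ratio of 1.08. Of 26 genes of the TGF-beta response, 9 were higher on every plate and 1 lower, among them Ctgf (2.83), Igfbp7 (1.53), Thbs1 (0.65) and Pmepa1 (0.38). Postn, a further gene of that list, was not among them, with log2 ratios of 0.94, -0.94 and 0.28.

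Matrix and inflammatory genes separated further. Among 21 collagens outside the rule, 6 were higher on every plate and 1, Col14a1, was lower. The 6 included the basement membrane chains Col4a1 (1.91) and Col4a2 (1.56) and Col15a1 (2.79), which had 1931, 2010 and 5874 CPM against 381, 129 and 1338. Of 27 matrix glycoproteins and proteoglycans, 5 were higher on every plate and 14 lower, and Dcn, decorin, was lower with a mean log2 ratio of -2.82. Of 26 inflammatory fibroblast genes, 0 were higher on every plate and 14 lower, at a median of -1.83 and against 18.9% of all genes. Ccl2, a monocyte attractant, had 342, 113 and 0 CPM against 1200, 656 and 170, and Cxcl12, a ligand that retains leukocytes, 150, 25.1 and 0 CPM against 367, 135 and 136. Plates with fewer wells of a class did not all follow. Cxcl12 had 1859 against 857 CPM on FibCtrl 2 and 186 against 0 on FibCtrl 3. On FibΔZeb1 1, 2 and 4 it had 2.82 against 0, 0 against 300 and 694 against 621. Ccl2 ran the other way on FibCtrl 2, with 3436 against 0 CPM, but not on the remaining plates. Of 19 immediate-early genes, which dissociation also induces, 0 were higher and 6 lower, among them Klf4 (-2.66) and Atf3 (-2.17).

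Tgfb1, Tgfb3 and Pdgfrb were higher, and Tgfbr2 and Pdgfra lower, in contractile than in matrix wells. Of 17 TGF-beta and PDGF genes, 5 were higher on every plate in contractile wells, the ligands Tgfb1, Tgfb3 and Inhba, the binding protein Ltbp2 and the receptor Pdgfrb, and 4 were lower, including the receptors Tgfbr2 and Pdgfra, against 12.8% and 18.9% of all genes. Pdgfrb had 636, 289 and 729 CPM against 232, 56.8 and 87.1. Pdgfra had 242, 113 and 110 CPM against 567, 563 and 655. For Tgfbr2 the mean log2 ratio was -3.52 ± 0.82. Of 8 pericyte markers, 4 were higher on every plate and 0 lower, of 4 smooth muscle markers 0 and 0, and of 7 epithelial markers 4 and 0, with Krt8 at 110, 176 and 68.8 CPM in contractile wells. Antigen presentation genes (1 higher and 1 lower of 8), retinoic acid genes (1 and 1 of 8) and cell cycle genes (0 and 0 of 17) showed little common direction. H2-Aa was found after thinning in 53.4% of contractile, 44.7% of matrix and 39.2% of epithelial wells, and without thinning in 88.6%, 88.2% and 86.8%. These shares do not separate free RNA from transcripts of the cell itself.

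Zeb1, the deleted gene (GRCm38 chromosome 18, 5591860 to 5775467), was examined first between genotypes. FibCtrl contractile wells held 46, 0, 4 and 5 Zeb1 transcripts by plate, or 65.1, 0, 30.9 and 62.8 CPM. FibΔZeb1 contractile wells held 26, 2, 1 and 0, or 36.7, 144, 13.8 and 0 CPM. Exact Poisson intervals (95%) were 47.6 to 86.8 CPM on FibCtrl 1 and 23.97 to 53.8 CPM on FibΔZeb1 1, the only plates with over 5 transcripts. Zeb1 averaged 52.9 ± 19.1 CPM over the 3 deeper FibCtrl plates against 25.2 ± 16.2 CPM over the 2 of FibΔZeb1 (mean ± SD). The difference of -27.7 CPM gave a two-sided exact permutation p = 0.3, and 0.1 is the smallest this design allows. Within the first sequencing run the difference was -28.4 CPM (1 plate each) and within the second -33.1 (2 against 1). The sample labels name no run. Runs were inferred from a code in the names of the deposited data and numbered by replicate, not by date. Plates 1 and 2 of each genotype fell in the first and plates 3 and 4 in the second. Transcripts counted at the 3′ end need not lie in the deleted part of the gene, so residual Zeb1 reads do not tell whether a cell had recombined. Zeb1 was also lower in contractile than in matrix wells of the 3 shared plates, with log2 ratios of -0.82, -0.43 and -1.52.

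Other factors of epithelial-mesenchymal transition did not pass the edgeR test. Zeb2, the paralogue of Zeb1, had 122, 54.1 and 62.8 CPM on FibCtrl 1, 3 and 4 and 206 and 96.3 CPM on FibΔZeb1 1 and 3, a log2 change of 0.92 (SE 0.50, adjusted p = 0.998). Snai1 had 207, 317 and 75.4 CPM against 97.4 and 55.03, a log2 change of -1.29 (SE 0.60). Twist1 had 260, 92.8 and 100 CPM against 130 and 68.8. Prrx1 was the most abundant of the list, with 433, 402 and 113 CPM against 264 and 220. The genotypes overlapped for Zeb2, Twist1, Prrx1, Snai1 and Snai2, and Zeb1 and Twist2 were too low to enter the fit.

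The share of contractile wells among fibroblast wells did not differ beyond the spread between plates. By plate it was 56.4%, 66.7%, 90% and 28.1% in FibCtrl, compared with 93.1%, 33.3%, 38.5% and 15.8% in FibΔZeb1. Exact binomial intervals (Clopper-Pearson, 95%) ran from 42.3 to 69.7% on FibCtrl 1 and from 77.2 to 99.2% on FibΔZeb1 1, and from 9.43 to 99.2% on FibCtrl 2, which had 3 fibroblast wells. The means were 60.3 ± 25.6% and 45.2 ± 33.4% (SD, n = 4 each), a difference of -15.1 percentage points with a two-sided exact permutation p = 0.514, where 0.0286 is the smallest possible. The difference was 1.70 points within the first sequencing run and -31.9 within the second. After wells with at least 3 mural transcripts had been removed, which left 31 contractile wells, it was -0.29 points.

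No gene passed the genotype test in contractile wells. Of 2539 genes tested with edgeR's quasi-likelihood test on plate sums, 0 (0%) passed the adjusted threshold of 0.05. Without adjustment 76 lay under 0.05 (2.99%), 40 of them higher (1.58%) and 36 lower (1.42%) in FibΔZeb1. DESeq2 on the same sums passed 9 genes (0.354%), all of which were among the 10 with the smallest p in edgeR. With the filter on low counts lifted edgeR passed 48 genes, of which 27 had been tested with the filter and 12 had no transcript in one genotype. The values below describe genes that did not pass in edgeR, where the 10 with the smallest p had adjusted p from 0.0962 to 0.688 and the other genes named had 0.818 or more.

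Of the 10 genes with the smallest p, 6 were higher in FibΔZeb1, led by Col10a1. Col10a1, collagen X of hypertrophic cartilage (chromosome 10, 34389981 to 34397085), had 36.8, 30.9 and 0 CPM on FibCtrl 1, 3 and 4 and 1806 and 674 CPM on FibΔZeb1 1 and 3, a log2 change of 5.49 (SE 0.71, adjusted p = 0.0962). Of the plates outside the fit, FibΔZeb1 2 had 2382 CPM, FibΔZeb1 4 had 0 and FibCtrl 2 had 141. Mgp (chromosome 6, 136872435 to 136875823) had 4123, 3650 and 2211 CPM against 11777 and 15202, a log2 change of 2.09 (SE 0.48, adjusted p = 0.688). The remaining FibΔZeb1 plates stood at the extremes for Mgp, with 44096 CPM on plate 2 and 2081 on plate 4. Spp1 (chromosome 5, 104435118 to 104441050) had 1290, 1539 and 2952 CPM against 9239 and 6769, a log2 change of 2.09 (SE 0.51). These Spp1 sums leaned on few wells. On FibΔZeb1 1 the highest 2 wells held 2170 and 1970 of 6545 Spp1 transcripts. On FibΔZeb1 3 a single well held 360 of 492, and only 3 of 5 wells had any. Single wells also held 347 of 912 on FibCtrl 1, 140 of 199 on FibCtrl 3 and 118 of 235 on FibCtrl 4. FibCtrl 2, with 6283 CPM of Spp1, lay above the other FibCtrl plates and just below FibΔZeb1 3, and FibΔZeb1 4, with 2241, lay among the FibCtrl plates. Ank, the pyrophosphate transporter, had 116, 46.4 and 50.2 CPM against 261 and 1389, and Smoc2, a matricellular protein, 65.1, 15.5 and 37.7 against 208 and 234. Smoc2 on the plates outside the fit ran the other way, with 329 CPM on FibCtrl 2 and 0 on FibΔZeb1 2 and 4. Serpine2 had 808, 418 and 540 CPM against 1753 and 2848, with 2941 on FibCtrl 2. The log2 changes were 3.48 for Ank, 2.32 for Smoc2 and 2.03 for Serpine2.

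The other 4, S100a4, Cxcl12, Hoxc8 and Gas1, were lower in FibΔZeb1. S100a4, a calcium-binding protein of motile fibroblasts, had 175, 294 and 377 CPM in FibCtrl and 22.6 and 27.5 in FibΔZeb1, a log2 change of -3.51 (SE 0.61, adjusted p = 0.396). Cxcl12 had 150, 186 and 25.1 CPM against 2.82 and 0 (-5.49, SE 1.12), but FibΔZeb1 4 had 694 CPM. Hoxc8, a positional homeobox gene, had 70.7, 155 and 176 CPM against 4.23 and 13.8 (-4.43), and FibΔZeb1 4 again stood apart with 294. With FibΔZeb1 4 in the fit, under a limit of 3 wells, the log2 change of Hoxc8 was -1.25 (SE 1.35) and that of Cxcl12 0.43 (SE 1.58). Gas1, a hedgehog co-receptor, had 119, 572 and 188 CPM against 18.4 and 27.5 (-3.79). For each of the 10 genes the 3 FibCtrl and 2 FibΔZeb1 plates did not overlap, as was so for 16.2% of all genes tested, 7.84% higher and 8.35% lower in FibΔZeb1. Over all 8 plates the genotypes did not overlap for Ank and Gas1 among the 10. Across all genes tested this held for 0.709% in the direction of Ank and 1.26% in that of Gas1. The 10 genes were chosen by their p on the plates of the fit, so their separation there was largely set by that choice. The shares of all genes are therefore not a like comparison for them. In matrix wells of the 4 FibCtrl plates Mgp had 2058, 26.8, 1010 and 202 CPM and in those of the FibΔZeb1 plates 2808, 3836, 760 and 1890, and whether the genotype difference varied between the classes was not tested.

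**Figure D5:**
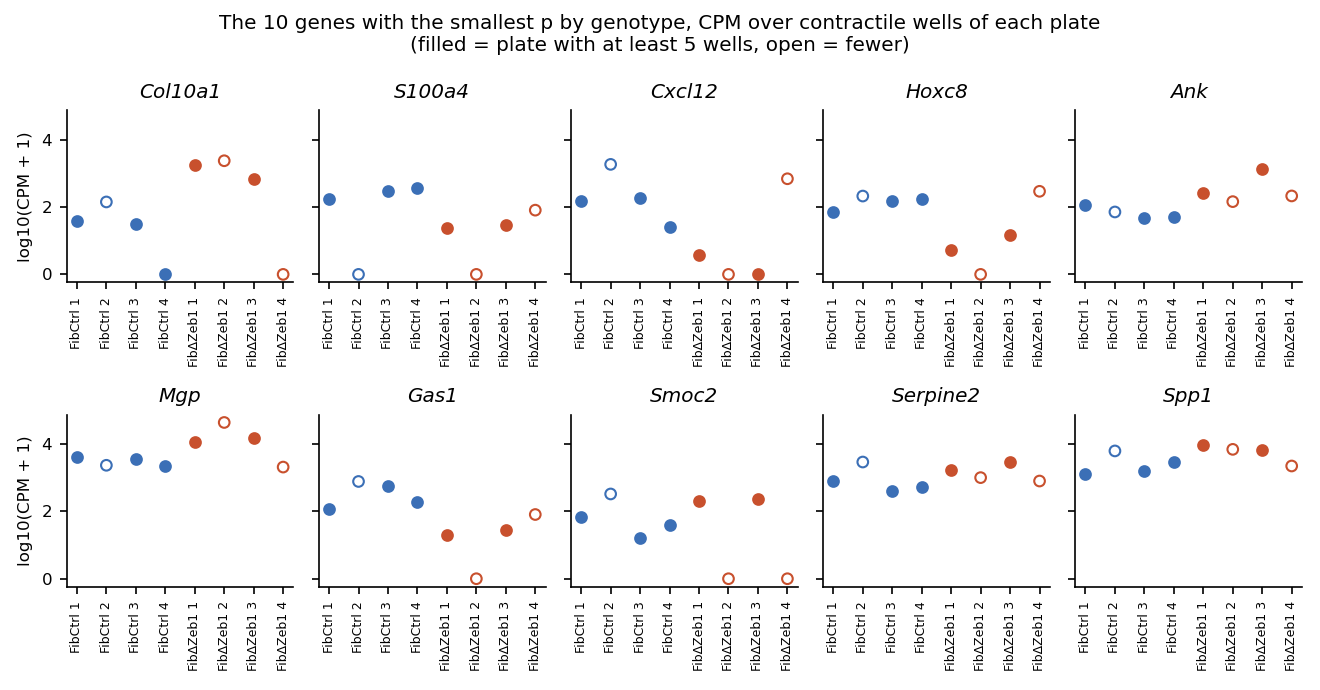
CPM over contractile wells, as log10 of CPM plus 1, on each of the 8 plates for the 10 genes with the smallest p by genotype (FibCtrl blue, FibΔZeb1 red). Filled points are the plates with at least 5 wells that entered the fit, and open points are the 3 plates left out, several of which lie on the other genotype's side.

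No member of the fixed lists passed edgeR's adjusted threshold, while DESeq2 passed Col10a1 of the collagens, Cxcl12 of the inflammatory list and Spp1 and Mgp of the matrix glycoproteins. Of 20 contractile apparatus genes tested, which include the rule genes Acta2 and Tagln, 5 were higher and 15 lower in FibΔZeb1, at a median log2 change of -0.23 against -0.01 for all genes tested. Myl6, Cald1 and Tpm4, the most abundant after the rule genes, changed by -0.09, -0.02 and -0.18 on the log2 scale (SE 0.43, 0.42 and 0.51). Actg2, enteric smooth muscle actin, was the only member with an unadjusted p under 0.05, at a log2 change of 2.18. Of 24 TGF-beta response genes 16 were higher and 8 lower (median 0.28), with Inhba (2.42) and Igfbp3 (-3.72) past an unadjusted 0.05. Inhba had 236, 572 and 214 CPM in FibCtrl and 342 and 3027 in FibΔZeb1, and the genotypes overlapped.

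Most collagens tested had a higher point estimate in FibΔZeb1, as did 49.1% of all genes tested. Of 20 collagens tested, which include the 4 that chose the wells, 14 were higher and 6 lower (median 0.33), and Col10a1, Col15a1 (1.53), Col4a1 (1.38) and Col4a2 (1.44) had an unadjusted p under 0.05, against 1.58% of all genes in that direction. Col4a1 had 3081, 1315 and 703 CPM in FibCtrl and 4859 and 3756 in FibΔZeb1. In TMM-scaled CPM the genotypes did not overlap for 4 collagens higher and 4 lower in FibΔZeb1. Across all genes tested this held for 7.84% and 8.35%. The 4 lower ones were Col1a1 (-0.23), Col3a1 (-0.46), Col5a1 (-0.50) and Col5a3 (-0.76), none with an unadjusted p under 0.05. Of 12 TGF-beta and PDGF genes 7 were higher and 5 lower, with Tgfbr1 (1.34), Eng (1.74) and Inhba past an unadjusted 0.05 and with lower values for Tgfbr2 (-0.35), Tgfbr3 (-1.28) and Pdgfra (-0.35). Tgfbr1, the type I receptor, had 99.01, 69.6 and 75.4 CPM against 175 and 248. Of 24 matrix glycoproteins 16 were higher and 8 lower (median 0.29), and Dcn had 1931, 2807 and 2625 CPM against 1060 and 963 (-1.23, SE 0.43).

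The inflammatory list had 6 higher and 9 lower members of 15 tested (median -0.48), with Cxcl12 and the adhesion molecule Vcam1 (-2.70) past an unadjusted 0.05. Its most abundant members were Nfkbia, with a log2 change of -0.46 (SE 0.74), Ccl7 (-0.67, SE 1.07) and C3 (-1.96, SE 0.98). Ccl2 had 342, 541 and 113 CPM in FibCtrl and 439 and 0 in FibΔZeb1. Immediate-early genes were lower in 15 of 19 (median -0.40), among them Fos (-0.40, SE 0.65) and Jun (-0.89, SE 0.77), and none had an unadjusted p under 0.05. Medians were -0.18 for 7 antigen presentation genes, -0.09 for 16 hypoxia and glycolysis genes, -0.05 for 6 cell cycle genes and 1.05 for 3 retinoic acid genes. Aldh1a2, the enzyme that makes retinoic acid, had 72.1, 433 and 151 CPM in FibCtrl and 668 and 179 in FibΔZeb1.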

How the data were processed

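The authors had reads aligned with bwa 0.7.10 to GRCm38 by the plate provider, and the submitters' notes also list Cell Ranger 2.1.1. The deposited values were estimated counts, namely molecular identifier counts corrected for collisions, with 87.1% of values above 0 exactly whole. No source used here says if counting was stranded. Counts were summed over contractile wells of a plate and rounded. The plate, which is 1 mouse, was the replicate. Spike-in (9.15% of transcripts) and mitochondrial transcripts were left out. Genes were tested with edgeR 4.0.16 (R 4.3.3, TMM, expression filter, quasi-likelihood test, genotype as the only term, Benjamini-Hochberg over all genes tested, threshold 0.05), with DESeq2 1.42.0 and limma 3.58.1 as alternatives. Changes are FibΔZeb1 minus FibCtrl. In simulated data of this design 61 of 100 genes changed by 2 on the log2 scale and 100 of 100 changed by 4 were recovered among 2247 genes, with 7 false calls. The changed genes were drawn only from those above the median level. Every simulated gene varied between plates as is typical for its level, which real genes need not do. The simulation therefore does not give the recovery of lower or more variable genes. Single values used exact permutation over plates. Ratios to matrix wells used CPM with a prior count of 2. Thinned shares used 2000 transcripts per well, which left out 0 wells. Intervals cover counting error only.

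Members, markers and gene lists were chosen with earlier results of these data known. The genes named were the rule genes with Mgp and Spp1, the 10 genes with the smallest p by genotype, the 10 furthest from matrix wells in each direction, the EMT factors, the 20 most abundant genes, and the most abundant members of each list. Other genes were named after their values were seen. Of the 10 genes highest beside matrix wells, 1 is not reported here. No doublet caller was run, since 1 cell was sorted per well. Columns of no sample numbered 0. Coordinates came from GENCODE M21 and promoters from RefSeq, both on GRCm38.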

Additional observations from a re-analysis of the deposited data

Results flagged for a closer look

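Among 36 groups of 4 plates examined, 10 held a plate far from the other 3 by Dixon's criterion at 95%. Chance marks about 1 group in 20 when values are not selected. Most groups here were values of rule genes or of the 10 genes chosen by smallest p on the plates of the fit. That choice favours plates of the fit that agree within a genotype, so the chance rate is not a like comparison. FibΔZeb1 1 held 27 contractile wells against 2 to 5 on the other FibΔZeb1 plates. Its wells summed to 708600 transcripts against 13865 to 72717, and those of FibCtrl 1 to 707176 against 42530 to 129381. Tnc reached 3178 CPM on FibCtrl 4 against 178 to 590 on the other FibCtrl plates. FibCtrl 2, with 2 contractile wells, was high for Cxcl12 (1859 CPM against 25.1 to 186), Smoc2 (329 against 15.5 to 65.1) and Serpine2 (2941 against 418 to 808). FibΔZeb1 4, with 3 wells, was high for Cxcl12 (694 CPM against 0 to 2.82) and Hoxc8 (294 against 0 to 13.8). Ank reached 1389 CPM on FibΔZeb1 3 against 144 to 261 on the other FibΔZeb1 plates. The plates concerned had fewer than 5 wells in 5 of these 10 cases.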

How the results depend on the processing

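The genotype test passed 0 genes under its main settings and also with another scaling, with the sequencing run as a term, with a limit of 3 wells, with the mitochondrial filter and with a contractile sum of at least 2 times the matrix sum. It passed 48 without the filter on low counts, 9 with DESeq2, 1 with equal weight per well in limma (Col10a1) and 1 with a replicate block (Col10a1). When FibCtrl 1, 3 or 4 was left out it passed 0. Fits without FibΔZeb1 1 or without FibΔZeb1 3 left 1 FibΔZeb1 plate, which is assumed to vary like the others. So did the fit with at least 5000 transcripts per well, which kept FibCtrl 1 and 3 and FibΔZeb1 1. Effect sizes alone are given for these fits. With at least 5000 transcripts the log2 changes were 5.61 for Col10a1 and -5.84 for Cxcl12. Without FibΔZeb1 1 the log2 change of Il11 was 8.42. The replicate numbers shared by genotypes are not stated to pair mice, and deviations of plates with the same number correlated at 0.28 and 0.14 over only 2 pairs. Cxcl12 changed sign to 0.43 when FibΔZeb1 4 entered with the limit of 3 wells. Hoxc8 was -1.25 there. Col10a1 and Smoc2, both at 0 on FibΔZeb1 4, did not enter that fit. The other 9 of the 10 genes kept their sign in each fit they entered, and adjusted p ranged from 3.13e-15 to 0.291 for Col10a1 and from 0.00682 to nearly 1 for Mgp. The rule genes Tagln, Acta2, Col8a1 and Tnc changed sign in 7, 3, 3 and 1 of 15 alternatives. The difference in contractile share ranged from -31.1 to -5.21 points when each plate was left out, was -0.29 without mural wells and was 1.70 within the first sequencing run. The Zeb1 difference ranged from -39.2 to -16.2 CPM when each plate was left out and was -10.3 CPM with at least 5000 transcripts per well. Genes with the same sign on every plate beside matrix wells numbered 2766 and 1594 with a limit of 3 wells, which adds a plate. The fits without mural wells and with at least 10 wells per plate were not run, since removal of mural wells left no FibΔZeb1 plate and a limit of 10 wells left 1 plate per genotype. Depth limits all genotype statements, because single wells carry up to 38.8% of a plate's contractile transcripts in the fit.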
